A study of Mus musculus with 14 samples.

Results

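The members described here were 6166 stretches of mouse DNA at which Smarca4 peaks lay far from genes and inside H3K27me3 islands. They were chosen by measured values. The 79014 control and 72339 knockdown Smarca4 peaks were merged into 100253 sites, of which 28545 lay outside every GENCODE gene body and more than 2.5 kb from every transcription start site (TSS), and are called distal. Of the distal sites, 8084 overlapped an H3K27me3 island of either condition. Among these, 1918 also overlapped an H3K27ac or H3K4me3 island of either condition and were set aside, which left the 6166 members. They made up 6.15% of all merged sites, and their median width was 351 bp (95% interval 344 to 358 bp).

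ChIP-seq lists came from 81K1 cells, mouse embryonic stem cells of OG2 origin carrying an anti-Smarcb1 shRNA cassette under doxycycline control at the Rosa26 locus. The line descends from 1 clone, K1. Control cells carried the cassette and were left untreated, and Smarcb1 knockdown (kd) cells received 1 µg doxycycline per ml medium daily and were fixed 72 h after induction. Both were grown on gelatine with LIF and serum. Each of 5 antibodies (Smarca4, Ezh2, H3K27me3, H3K27ac, H3K4me3) had 1 library per condition, so no difference between conditions could be tested against replicates. Doxycycline without the shRNA effect cannot be told apart from the knockdown. Per the study's methods, Active Motif carried out the Smarca4 and H3K27me3 ChIP-seq. Ezh2, H3K27ac and H3K4me3 were done by the authors and their core facility, and each set had its own inputs. Overlaps of Ezh2, H3K27ac or H3K4me3 with Smarca4 sites thus cross these sets. Intervals given below are 95% intervals for counting error only, and neighbouring sites of 1 island are not independent. The lists hold no read counts, so depth is unknown, and they hold no measure of Smarcb1 itself. The control list was the longer one for H3K27me3 (22909 against 18320 islands, 195 against 145 Mb) and for Ezh2 (6708 against 5364 peaks). The Ezh2 peaks had median widths of 354 bp (control) and 736 bp (kd), and covered 3.65 and 5.36 Mb. The kd list was the longer one for H3K27ac (51100 against 39091 islands) and H3K4me3 (33506 against 26130), the marks by which sites were set aside. The part of these list lengths in the members' shares was not tested.

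Smarca4 is the ATPase of the BAF chromatin remodelling complex in embryonic stem cells, and Smarcb1 is one of its core subunits. Ezh2 is the methyltransferase within PRC2, the Polycomb complex that places H3K27me3, a mark of silenced chromatin that in these cells covers many genes of later development. BAF is known both to oppose PRC2 and, at some developmental loci of embryonic stem cells, to act on the same genes. H3K27ac and H3K4me3 mark active enhancers and promoters, though H3K4me3 also occurs together with H3K27me3 in bivalent domains of embryonic stem cells. The members are distal Smarca4 sites without either mark.

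The sequences of 7 members show the DNA under the calls. They are the highest scoring member called in both conditions, the pair that tied for the highest control score among those called in control alone, the highest called after kd alone, and the 3 with the highest Ezh2 score, 1 for each nearest gene. The central 200 bp are given from GRCm38 (mm10) as held by RefSeq, and each line names the nearest protein-coding gene. Capitals mark CpG dinucleotides.
Zc3h12a (in both lists), chr4:125300814-125301013, plus strand: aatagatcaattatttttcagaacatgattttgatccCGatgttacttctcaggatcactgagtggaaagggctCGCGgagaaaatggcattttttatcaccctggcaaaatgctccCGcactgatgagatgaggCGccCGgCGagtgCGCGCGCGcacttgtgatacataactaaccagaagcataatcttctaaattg
Egr2 (control alone), chr10:67458885-67459084, plus strand: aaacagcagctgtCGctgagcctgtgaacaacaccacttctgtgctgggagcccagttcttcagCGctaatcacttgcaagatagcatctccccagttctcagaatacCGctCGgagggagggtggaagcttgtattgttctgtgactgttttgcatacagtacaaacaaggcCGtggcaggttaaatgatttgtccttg
Hes1 (control alone), chr16:29882706-29882905, plus strand: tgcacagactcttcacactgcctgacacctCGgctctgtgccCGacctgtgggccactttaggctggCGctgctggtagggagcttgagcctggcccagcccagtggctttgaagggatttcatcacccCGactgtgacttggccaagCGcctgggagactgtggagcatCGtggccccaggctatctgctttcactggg
Samd9l (kd alone), chr6:3201107-3201306, plus strand: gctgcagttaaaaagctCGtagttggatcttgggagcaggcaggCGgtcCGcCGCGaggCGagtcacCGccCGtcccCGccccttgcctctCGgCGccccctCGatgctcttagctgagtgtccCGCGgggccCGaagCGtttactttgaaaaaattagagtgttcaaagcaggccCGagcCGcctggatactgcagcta
Lbx1 (highest Ezh2), chr19:45232038-45232237, plus strand: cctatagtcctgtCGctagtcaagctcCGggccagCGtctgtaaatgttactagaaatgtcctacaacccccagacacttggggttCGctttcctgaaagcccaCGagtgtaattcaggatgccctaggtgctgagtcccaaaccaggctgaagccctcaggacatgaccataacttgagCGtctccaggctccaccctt
Ebf3 (highest Ezh2), chr7:137317516-137317715, plus strand: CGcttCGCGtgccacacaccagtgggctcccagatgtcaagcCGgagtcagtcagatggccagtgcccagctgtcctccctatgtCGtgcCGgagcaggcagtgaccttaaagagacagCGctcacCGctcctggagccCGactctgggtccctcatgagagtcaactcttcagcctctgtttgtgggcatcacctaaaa
Onecut3 (highest Ezh2), chr10:80490155-80490354, plus strand: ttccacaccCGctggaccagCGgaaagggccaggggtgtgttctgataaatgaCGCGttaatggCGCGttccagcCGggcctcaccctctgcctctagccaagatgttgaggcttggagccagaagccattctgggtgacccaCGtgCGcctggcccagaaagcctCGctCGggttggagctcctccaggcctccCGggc

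These sequences differed in CpG content. The Egr2, Hes1 and Lbx1 members held 5, 6 and 6 CpGs in 200 bp, whereas the Samd9l member held 18, the Onecut3 member 12 and the Zc3h12a member 11. None of the 7 printed stretches contained a repeat-masked base. Of the 170 words of 31 bases in the Samd9l stretch, 127 occurred in more than 1 place of the standard chromosomes, and all 127 were found in CT010467.1, a gene of type rRNA in GENCODE on chromosome 17. In the other 6 stretches every such word occurred in 1 place.

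Members were called in control alone more often than merged sites as a whole. Of the 6166 members, 3100 had a Smarca4 peak in control alone (50.3%, 49.0 to 51.5%), 1495 in both conditions (24.2%) and 1571 after kd alone (25.5%). Over all merged sites these shares were 34.6% (control alone), 39.7% (both) and 25.7% (kd alone). The kd-only share of the members thus lay near the background, and the members stood off by more control-only and fewer shared calls. This depended on repeats. Among sites under 50% repeat-masked, 23.6% of members and 19.6% of all merged sites were kd-only, and 51.4 and 38.1% control-only. On the log2 scale, kd-only over control-only calls came to -0.98 (-1.07 to -0.89) in the members and -0.43 over all merged sites. Over all merged sites in an H3K27me3 island it was -0.93 (-0.98 to -0.89), so this tilt was not particular to the members. Since the Smarca4 calls also chose the sites, these shares are a description.

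Other distal sites differed among themselves. Distal sites without any of the 3 marks (n = 8034) had nearly the same control-only share as the members, 51.2%, but more kd-only calls (32.6%) and fewer shared ones (16.2%). Distal sites with H3K27ac and no H3K4me3 (n = 6231), a pattern typical of active enhancers, were shared in 40.5% and control-only in 30.5%. Where both active marks were present (n = 6322), 53.7% were called after kd alone and 3.72% in control alone. In that last class 77.6% of sites had a central 31-base word that occurs in more than 1 place, against 5.94% of the members.

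**Figure D1:**
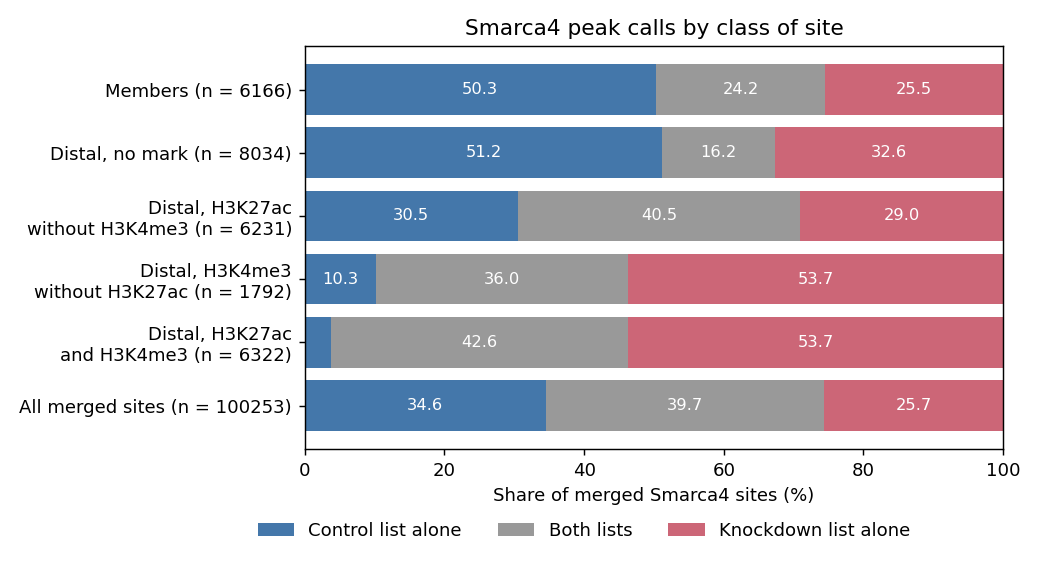
Share of merged Smarca4 sites (x axis, %) called in the control list alone, in both lists or in the knockdown list alone, for the members, the other classes of distal sites and all merged sites, with the number of sites in each. Control-only calls made up 50.3% of the members and 34.6% of all sites, and kd-only calls 25.5% and 25.7%.

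Member peaks were weak in both lists. A peak's rank is given here as the percent of peaks in its own list with a lower score (tied peaks take the middle of their ranks), since scores of separate libraries are not on a common scale. The median rank of member peaks was 38.4 in control (n = 4595) and 34.4 after kd (n = 3066), against 49.1 and 52.5 over all merged sites. All distal sites stood at 42.6 and 45.4, and distal sites without any mark lower than the members, at 35.7 and 27.8. At comparable control ranks the members were found again after kd less often than sites in general. Between ranks 0 and 25 of the control list 19.8% of the members and 27.2% of all sites were also called after kd, between ranks 50 and 75 the shares were 42.8 and 59.0%, and between ranks 75 and 90 they were 69.2 and 85.8%. Distal sites without any mark stood lower than the members in these bins, with 15.7, 34.5 and 51.6%. Seen from the kd list, members and all sites differed less, with 32.9 and 34.1% between ranks 0 and 25 and 64.2 and 67.6% between ranks 50 and 75 also called in control.

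The 1495 members called in both conditions ranked lower in the kd list than in the control list. Their median rank was 55.0 in control and 45.4 after kd, the median difference of kd minus control was -8.55 percentile points (-10.2 to -6.54), and 38.5% ranked higher after kd. Over all shared sites the median difference was -1.66 points, and over all shared distal sites it was 2.53 points. With both lists cut to the 72339 highest peaks, a comparison added after seeing the data, the differences were -6.59 (-8.55 to -4.90), -0.71 and 3.73 points. A loss of more than 50 points was seen in 135 members (9.03%) and a gain of that size in 52 (3.48%), compared with 4.89 and 4.63% of all shared sites.

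**Figure D2:**
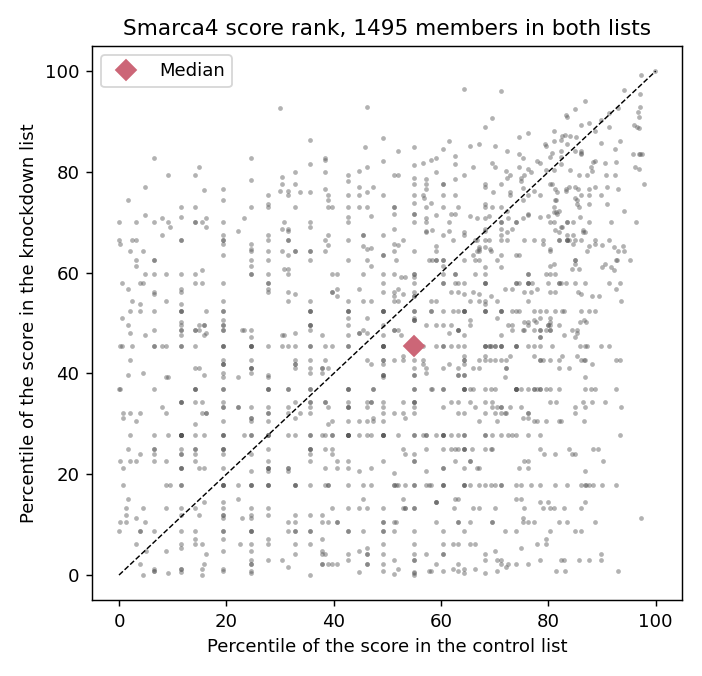
Percentile of the Smarca4 peak score in the control list (x axis) and in the knockdown list (y axis) for the 1495 members called in both, 1 point per member, with the dashed line of equal rank and a diamond at the medians. The medians were 55.0 in control and 45.4 after kd, and the points spread widely around the line.

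The strongest members were called in both conditions. The highest member score in both lists fell on a 1350-bp member at chr4:125300239-125301588, 172399 bp from the TSS of Zc3h12a, which encodes an RNase that degrades inflammatory transcripts. It scored 638 in control and 1086 after kd, ranks of 99.8 and 99.97. The 7 members next in control score lay nearest to Aldh1b1, a mitochondrial aldehyde dehydrogenase, Ankrd33, Arhgap40, Tmem238l, Ppm1a, a protein phosphatase, Vrk1, a chromatin kinase, and Cabp7, with control scores from 377 down to 341. Their kd scores ran from 30 at the Tmem238l member (rank 11.4) to 517 at the Arhgap40 member (rank 99.3), and since they were picked by control score the 2 ranges cannot be compared. Among the 8 members with the highest kd scores, those nearest to Ccl17, a chemokine, and Msrb3, a methionine sulfoxide reductase, had moderate control scores of 86 and 102 and kd scores of 344 and 332. The members nearest to Crhr1, the receptor for corticotropin-releasing hormone, and Cpn2 scored 262 and 176 in control and 335 and 287 after kd.

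The 5 highest control-only members lay nearest to Egr2 (score 269), a zinc finger factor of the hindbrain, Hes1 (269), the Notch target, Cyld (265), a deubiquitinase, Lef1 (259), the Wnt pathway's DNA-binding partner of beta-catenin, and Lrrc52 (244). All 5 lay in H3K27me3 islands present in both lists, and 4 of them were more than 30 kb from their gene's TSS, the Lef1 member being 7824 bp away. The highest kd-only member, chr6:3200766-3201648, scored 250 and is the CpG-rich Samd9l member shown above, with 517 of its 853 words of 31 bases at the rRNA gene on chromosome 17. The part of reads from ribosomal DNA in its Smarca4 and Ezh2 calls was not tested. Its neighbour gene Samd9l starts 183358 bp away, its H3K27me3 island was in the control list alone, and it carried an Ezh2 peak after kd. The next kd-only scores were 170 (nearest to Atg7), 168 (B4galnt2), 160 and 152 (both nearest to Hrh1). Outside the island between Hrh1 and Atg7, described below, the next kd-only members lay nearest to Gm21119 (142), Cacna1a (139), a neuronal calcium channel subunit, and Eif4b (130).

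Smarca4 calls differed in their shares between members whose H3K27me3 island was in both lists, in control alone or after kd alone. In all, 3300 members (53.5%) lay in an island of both H3K27me3 lists, 2329 (37.8%) in one of the control list alone and 537 (8.71%) in one of the kd list alone. Over all 34457 merged Smarca4 sites in an H3K27me3 island the same shares were 63.7, 30.0 and 6.27%. Where the island was in the control list alone, 33.6% of members (31.7 to 35.5%) were called for Smarca4 after kd alone and 46.3% in control alone. Where the island was in the kd list alone, 9.50% (7.30 to 12.3%) were called after kd alone and 66.3% (62.2 to 70.2%) in control alone. Islands of both lists stood between these, with 22.4 and 50.5%. The 28291 sites in an H3K27me3 island that were not members had the same order of kd-only shares, with 25.2% (control alone), 14.4% (both) and 9.17% (kd alone), so the order was not particular to the members. Their control-only share was also highest in the kd-alone state (51.3%). Without chromosomes 8, X and Y the kd-only shares were 33.7, 8.78 and 22.1% in the same order of control alone, kd alone and both. Both marks chose the members, and each state rests on 1 library per condition, so no test applies.

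**Figure D3:**
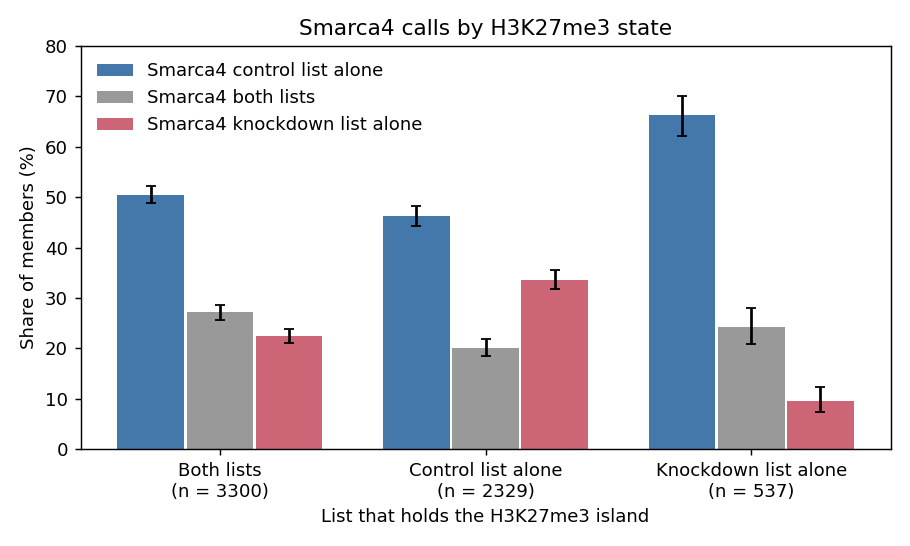
Share of members (y axis, %) called for Smarca4 in the control list alone, in both lists or in the knockdown list alone, by the list that holds their H3K27me3 island (x axis), with 95% Wilson intervals as bars for counting error only. The kd-only share was 33.6% where the island was in the control list alone and 9.50% where it was in the kd list alone.

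Ezh2 peaks were rare at members. This measure was not used to choose them. An Ezh2 peak overlapped 69 members in control (1.12%, 0.885 to 1.41%) and 141 after kd (2.29%, 1.94 to 2.69%). Over all merged sites the shares were 3.41% in control and 5.97% after kd, and over all Smarca4 sites in an H3K27me3 island 9.83 and 17.2%. Over all distal sites they were lower than in the members, 0.764 and 1.53%. Other distal sites lay on both sides of the members. Those with H3K4me3 and no H3K27ac had Ezh2 at 6.03% in control and 13.9% after kd, and the 1918 sites set aside for H3K27ac or H3K4me3 at 7.56 and 15.3%. Those without any mark had it at 1 of 8034 in control and 0 after kd, which allows a share of up to 0.0478% by the Wilson interval, and those with H3K27ac and no H3K4me3 at 2 and 4 of 6231. The members' shares depended on the choice of members and of overlap. They were 0.578 and 1.58% more than 5 kb from every TSS, 2.06 and 4.24% in islands of both H3K27me3 lists, and 2.95 and 4.14% with a peak within 1 kb, where all merged sites had 4.96 and 7.92%. Of the members, 58 had an Ezh2 peak in both lists, 83 after kd alone and 11 in control alone. The same tilt was seen over all merged sites, with 2679 after kd alone and 104 in control alone. In the 58 members with both, the Ezh2 score was higher after kd in 52, with medians of 84.5 in control and 177.5 after kd, while the median rank in the Ezh2 list was 59.8 and 60.6. Scores thus differed between the lists while ranks were close.

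Members with Ezh2 shared several features. Of the 152 with an Ezh2 peak in either list, 150 lay in an H3K27me3 island of both lists. They were close to genes, with a median distance of 6999 bp to the nearest protein-coding TSS, against 23410 bp for all members. Among members 2.5 to 5 kb from a TSS, 4.94% had Ezh2 in control and 6.92% after kd, and from 5 to 10 kb 2.12 and 5.93% did. Beyond 10 kb no distance bin exceeded 0.976% in either list. Sites with a CpG observed to expected ratio of at least 0.6 and at least 50% GC made up 43.4% of members with Ezh2 (35.8 to 51.4%) and 4.71% of the others. By Smarca4 call, Ezh2 after kd was found at 4.68% of members in both lists (3.72 to 5.87%), 1.58% of control-only and 1.40% of kd-only members. These classes differed in median width, with 638, 325.5 and 257 bp in the same order, and an overlap of 1 bp was enough. The part of width in these shares was not tested. Presence of Ezh2 elsewhere in the island was far more common, since 30.2% of members lay in an island that overlapped an Ezh2 peak somewhere.

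**Figure D4:**
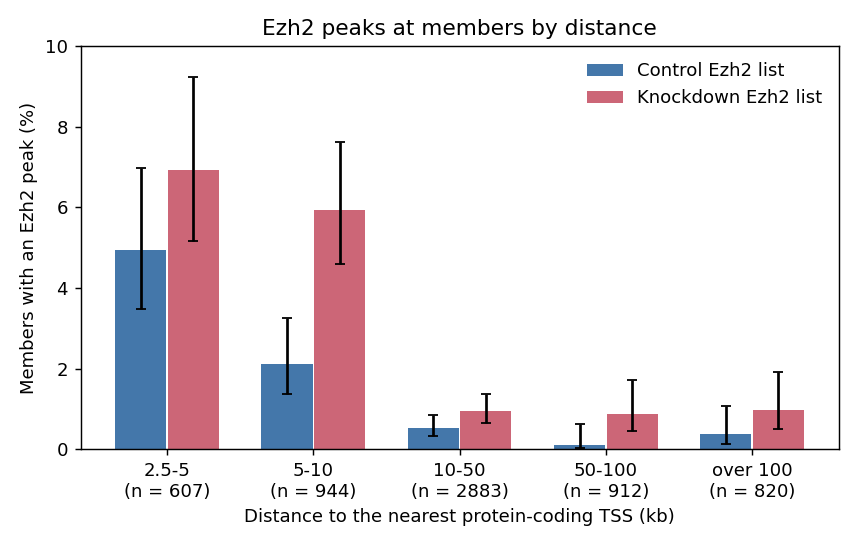
Members with an Ezh2 peak (y axis, %) in the control and knockdown Ezh2 lists by distance to the nearest protein-coding TSS (x axis, kb), with 95% Wilson intervals as bars for counting error only and the number of members in each bin. The shares fell from 4.94% (control) and 6.92% (kd) at 2.5 to 5 kb to under 1% beyond 10 kb.

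The highest Ezh2 scores lay beside genes of transcription factors. The top member, 3511 bp from the TSS of Lbx1, a homeobox factor of spinal cord and muscle precursors, scored 506 for Ezh2 in control and 1184 after kd, and its Smarca4 peak, score 55, was in control alone. A pair of members beside Ebf3, 2741 and 4028 bp away, shared Ezh2 peaks of 186 in control and 885 after kd, and both carried Smarca4 in both conditions. Onecut3, of the Cut homeobox class, had 3 members within 2610 to 4334 bp, all in 1 kd Ezh2 peak of score 438. Of these the middle one rose in Smarca4 score from 67 to 140, the outermost fell from 86 to 41, and the one closest to the gene was called in control alone (32). The next were a pair of members at Hoxa11 (kd Ezh2 score 412) and 3 members at Sox14 (412), with control Ezh2 scores of 135 at Hoxa11 and 130, 130 and 28 at Sox14. Members in 1 Ezh2 peak thus differed in their Smarca4 calls. Near Tbx5, a heart and forelimb factor, all 3 members had Ezh2 after kd, and 1 of them was called for Smarca4 in both lists. The other 2 were called for Smarca4 after kd alone (scores 63 and 42) in an Ezh2 peak of 171 in control and 336 after kd. Near Hand2, of the bHLH class, 3 members lay in a kd Ezh2 peak of 321, and of these 2 had Smarca4 in control alone.

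Members were unevenly spread. They fell in 3002 of the 26792 merged H3K27me3 islands, 1674 of which held 1 member. The islands with members were wider (median 10.2 kb) than all islands (6 kb), and 234 of them held 5 or more members, 1665 members together. No gene overlapped 61.7% of the islands with members, and 32.3% of them covered a TSS.

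The island with the most members went against the overall direction. It spanned chr6:114485001-114641800, 156.8 kb between Hrh1, the histamine H1 receptor, and Atg7, an enzyme of autophagy, and was present in both H3K27me3 lists. It held 85 members, of which 65 were called after kd alone, 20 in both conditions and 0 in control alone. All 85 scored between 20 and 178 after kd, and the 20 also called in control scored between 22 and 140 there, with a higher kd than control score in 18. Smarca4 peaks covered 10.8 kb of the island in control (29 peaks) and 64.8 kb after kd (104 peaks), and 5 H3K4me3 islands lay in it after kd against 0 in control. Repeat-masked bases made up 72.8% of the island, 78 of the 85 members were at least 50% repeat-masked, and 83 had a central 31-base word found in more than 1 place. The part of repeats or of copy number in these calls was not tested. These members were 4.14% of all kd-only members, and without them the log2 of kd-only over control-only members was -1.04.

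**Figure D5:**
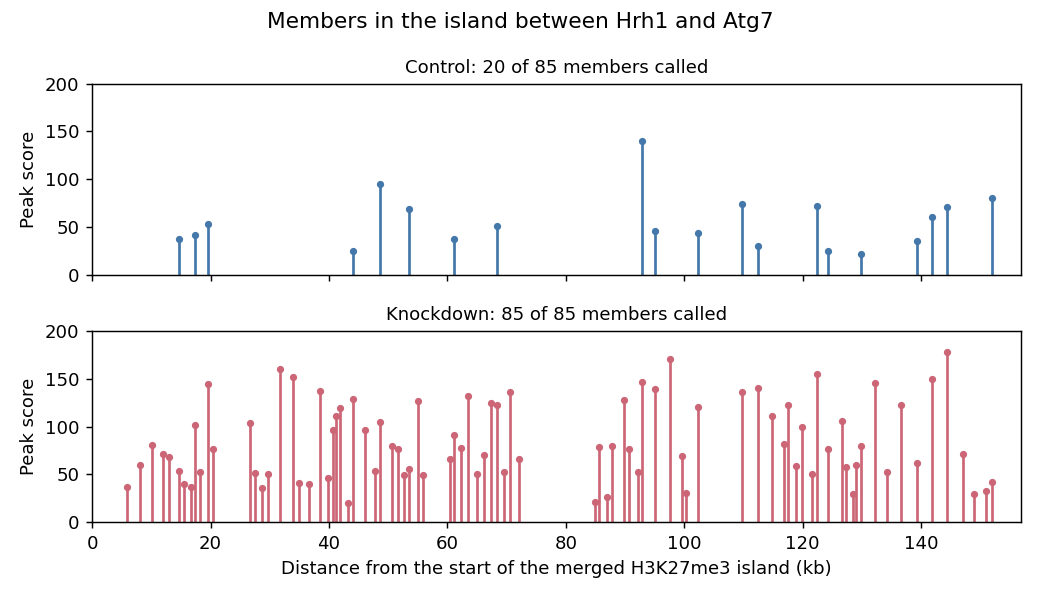
Smarca4 peak score (y axis) of the 85 members in the H3K27me3 island between Hrh1 and Atg7 by distance from the island's start (x axis, kb), in control (top) and after knockdown (bottom), 1 line per member called. In control 20 members were called, after kd all 85, with scores of up to 140 and 178.

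Other clusters differed in their calls. An island of 51 kb (chr8:55345601-55396600), nearest to Gpm6a, a neuronal membrane glycoprotein, held 18 members, of which 13 were called after kd alone, 4 in both and 1 in control alone, and 0 of these were at least 50% repeat-masked. An 83-kb island (chr5:139525001-139608000) around Uncx, a homeobox gene of somites and neurons, held 15 members, 7 called after kd alone and 4 in control alone, and 5 of them carried Ezh2 after kd. A 43.6-kb island near Sept9 held 19 members (6 control-only, 9 in both, 4 kd-only), and the island around Neurod2, a neuronal bHLH gene, 15, with 5 in each class. In contrast, the 1-Mb window with the most members, on chromosome 2 from 172 Mb, lay around Tfap2c and Bmp7 and held 89, of which 61 were control-only, 19 in both and 9 kd-only.

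The genes with the most members as their nearest were Tfap2c (56), Atg7 (44), Hrh1 (41), Pja1 (38), Rpl38 (32), Sulf2 and Vrk1 (27 each), Gpm6a (25), and Tle3 and Zc3h12a (23 each). The nearest gene is a statement of position only. At Tfap2c, a factor of trophoblast and germ cells, 42 of the 56 members were control-only and 3 kd-only, from 5.2 to 184 kb from the TSS. At Tle3, a Groucho co-repressor, 21 of 23 were control-only and 0 kd-only. At Vrk1 19 of 27 were control-only and 1 kd-only. Gpm6a showed the reverse, with 18 of 25 kd-only and 2 control-only. At Pja1, a ubiquitin ligase gene on the X chromosome, 20 of 38 were control-only and 10 kd-only, and at Sulf2, a heparan sulfate editing enzyme, 13 of 27 and 5.

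Genes of developmental transcription factors were often the nearest. Of the members, 695 (11.3%, 10.5 to 12.1%) lay nearest to one of 415 such genes, against 4.67% of all merged sites, 5.99% of all distal sites and 4.06% of distal sites without any mark. Distal sites with H3K4me3 and no H3K27ac came close to the members, with 9.71% (8.42 to 11.2%), so the trait was not particular to the members. Assigned to the nearest TSS of any gene type, the shares were 5.48% of members, 2.34% of all merged, 2.28% of distal and 1.01% of unmarked distal sites. At least 1 member lay nearest to 179 of the 415 genes (43.1%), compared with 10.5% of all protein-coding genes. Among these 695 members, 7.91% had Ezh2 in control and 15.4% after kd (12.9 to 18.3%), while of the 5471 others 0.256 and 0.621% did. They lay in an island of both H3K27me3 lists in 74.0%, the others in 50.9%. In Smarca4 calls the 2 sets were nearer each other, with 53.8 and 49.8% control-only and 19.7 and 26.2% kd-only.

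Families of factors varied, and shares of all distal and all merged sites are given in that order after each share of the members. Homeobox genes outside the Hox clusters led, with 288 members (4.67% against 1.99 and 1.59%) at 71 of 137 genes, of which 145 were control-only, 58 kd-only and 63 bound by Ezh2 after kd. Zinc finger and nuclear receptor genes followed with 153 (2.48% against 1.88 and 1.38%), 93 control-only and 19 kd-only, of which 56 were those of Tfap2c. Hox genes had 19 members (0.308% against 0.0806 and 0.194%) at 12 of 39 genes, and 7 of the 19 had Ezh2 after kd. Members nearest to Sox genes, 42 (0.681% against 0.427 and 0.322%) at 10 of 19 genes, were control-only in 28 and kd-only in 3. Of these, Sox9, a factor of cartilage and gonad, had 7 control-only members of 8, and all 7 members of Sox21 were control-only, 4 of them with Ezh2 after kd and 0 in control. The bHLH genes had 104 members (1.69% against 0.830 and 0.478%), 62 control-only and 16 kd-only, led by Hes1 (17, of which 13 control-only) and Id2 (13, of which 10 control-only). T-box and forkhead genes had a more even split, with 12 control-only and 11 kd-only of 28, and 23 and 24 of 56. They made up 0.454% (against 0.224 and 0.182%) and 0.908% (against 0.490 and 0.471%) of members. Among forkhead genes, Foxp4 had 6 kd-only of 9 members and all 4 of Foxk1 were kd-only, while Foxo1 had 7 control-only of 11.

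Among other groups, genes of signalling pathways were nearest to 130 members (2.11% against 1.52% of distal and 1.35% of all merged sites), of which 78 were control-only and 30 kd-only. The 14 members of Wnt11, a Wnt ligand, were all control-only, as were 8 of 9 of Fzd7, a Wnt receptor, and 13 of 21 of Bmp7, a BMP ligand. Adhesion genes had 130 members (82 control-only, 16 kd-only), axon guidance genes 68 (40 and 13) and ion channel and synapse genes 108 (54 and 29). Adhesion genes took 2.11% of members, 2.38% of distal and 1.80% of all sites, axon guidance genes 1.10, 0.795 and 0.905%, and ion channel and synapse genes 1.75, 1.75 and 1.72%, so adhesion and channel genes lay near the background. Pluripotency genes had 38 members at 14 of 26 genes, 17 control-only and 8 kd-only, and 0 of the 38 had Ezh2 in either list. At 0.616% of members, against 1.02% of distal and 0.619% of all sites, they lay at or under the background. Sox2, a core pluripotency factor, had 4, of which 3 were in both lists. Olfactory and vomeronasal receptors, a family of 1479 genes, had 7 members (0.114% against 1.34% of distal and 0.536% of all sites).

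In sequence the members lay between other classes of sites in CpG content. Median GC of the central 300 bp was 53.3%, against 54.0% over all merged sites, and the median CpG observed to expected ratio was 0.285 (0.280 to 0.290) against 0.336. It was 0.379 over all Smarca4 sites in an H3K27me3 island, 0.239 over distal sites without any mark and 0.214 over those with H3K27ac and no H3K4me3. Members called in both conditions had a higher ratio, 0.342, than control-only (0.258) and kd-only members (0.291). Repeats were most frequent in the kd-only members. At least 50% of bases were repeat-masked in 12.9% of kd-only members (11.4 to 14.7%), 3.81% of control-only members and 2.94% of members in both, and the central 31-base word occurred in more than 1 place in 15.3, 2.06 and 4.15%. Without the island between Hrh1 and Atg7 these 2 shares of kd-only members were 9.50 and 11.7%. The same held beyond the members, with at least 50% repeat-masked bases in 36.1% of kd-only, 7.59% of control-only and 10.7% of shared sites over all merged sites, and in 8.90, 3.22 and 2.37% of the other sites in H3K27me3 islands. Over all 6166 members the share was 5.92%, above the 4.15% of all Smarca4 sites in an H3K27me3 island and under the 18.3% of distal sites without any mark and the 82.2% of those with both active marks.

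Short motifs were searched on both strands of the central 300 bp, and each match is a description of letters only. The consensus of CTCF, the architectural zinc finger protein, occurred in 42 of 1571 kd-only members (2.67%, 1.98 to 3.59%), 24 of 1495 in both (1.61%) and 9 of 3100 control-only members (0.290%, 0.153 to 0.551%). It occurred in 0.719% of all merged sites. Among members whose central word occurs in 1 place, the order was the same, with 3.01, 1.67 and 0.296%. Over all merged sites with a central word in 1 place it was 1.94% (kd-only), 0.618% (both) and 0.416% (control-only), so the order of kd-only over control-only was not peculiar to the members. The octamer word of Pou factors, ATGCAAAT, ran the other way, in 0.764% of kd-only, 1.87% of control-only and 2.54% of members in both, against 1.37% of all sites. Over all merged sites with a central word in 1 place it was 1.04, 1.97 and 1.07%, so kd-only sites were also below control-only ones there. Part of the REST element, ACAGCGCC, was in 1.72, 0.581 and 1.40% in the same order, and in 2.25% of all sites. Over all merged sites with a central word in 1 place it was 1.46, 0.693 and 1.78%. The GC box GGGCGG was in 14.5% of members and 21.7% of all sites. The E-box CAGCTG was in 23.1% of members against 19.6%, the Klf word GGGNGTGG in 14.9 against 14.5%, the Sox word ATTGTT in 9.21 against 8.87%, the AP-1 word TGANTCA in 8.09 against 7.12% and the Esrrb word AAGGTCA in 6.70 against 6.07%. The GC box and Klf words can overlap in a G-rich run.

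The values on either side of the 2.5 kb distance limit are given as a description. Just inside it, 222 members lay 2500 to 3000 bp from a TSS, and 50.5% of them were control-only, 24.3% kd-only and 8.56% bound by Ezh2 after kd. Just outside, 259 sites that met every other condition lay 2000 to 2500 bp from a TSS, with 52.9, 25.9 and 9.65%.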

How the data were processed

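ChIP-seq lists of 10 libraries (5 antibodies, control and kd) were used, and 4 input samples had none. Reads were trimmed with Trim Galore, aligned to mm10 with Bowtie2 and kept if uniquely mapped (SAMtools 1.9), per the labels and the study's methods. The authors called Smarca4 and Ezh2 peaks with MACS2, and the deposited score is a whole number of at least 13 that rises with confidence. The authors called histone islands with SICER (window 200 bp, gap 600 bp), and the deposited p-value of each island was the filter. The methods name input as background, whereas the peak names speak of IgG.

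Regions off the standard chromosomes were left out. Lists were merged and overlapped (1 bp) with bedtools 2.31.1, and genes came from GENCODE M21 on GRCm38. Members and gene lists were chosen with earlier results of these data known. Gene lists were name patterns. Shares carry 95% Wilson intervals and medians order-statistic intervals, and no test between conditions was possible with 1 library each. Exact copies of the central 31 bases were counted on both strands. The selection was tested on simulated data. Named genes were the nearest protein-coding genes of the 8 members with the highest control and kd scores, the 5 highest called in 1 condition alone, the 10 highest for Ezh2, the 10 genes with most members and the 5 islands with most members. Single genes named beside a family's counts, the window around Tfap2c and Bmp7, the Ezh2-bound members at Tbx5 and Hand2, which rank below the first 10, and the kd-only members outside the island between Hrh1 and Atg7 were chosen after their values were seen. Alternatives were stricter thresholds, other overlaps, distances, gene models and merging, equal list lengths, and members without repeats.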

Additional observations from a re-analysis of the deposited data

How the results depend on the processing

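The shares by call, H3K27me3 state, Ezh2, repeats and nearest gene, and the medians of distance and CpG ratio, were recomputed under the alternatives that apply to each. The log2 ratio below stayed negative in each of its 11 alternatives. Sharing by score, Ezh2 by distance and gene families were not recomputed. Motifs were recomputed only for members whose central bases occur in 1 place and without the island between Hrh1 and Atg7. Of 64 values of the 6 main results, 40 stayed within their interval and 24 moved outside it. Under the stricter thresholds (3010 members) the control-only share was 55.1%, the log2 of kd-only over control-only members (log2 ratio below) -1.35, the Ezh2 shares 1.66% in control and 4.12% after kd, and the share nearest to a developmental transcription factor gene 13.3%. With an island required in both H3K27me3 lists the log2 ratio was -1.17, the Ezh2 shares 2.06 and 4.24% and the transcription factor share 15.6%. More than 5 kb from a TSS the Ezh2 shares were 0.578 and 1.58% and the share with a control island alone 39.1%. With protein-coding gene models alone the Ezh2 shares were 1.65 and 3.06% and the transcription factor share 12.4%. An Ezh2 peak within 1 kb was found at 2.95 and 4.14% of members. Without members at least 50% repeat-masked the log2 ratio was -1.12. The control-only and kd-only shares were then 51.4 and 23.6%, against 38.1 and 19.6% of all merged sites under the same limit. With peaks up to 200 bp apart merged the control-only share was 48.8%. With Smarca4 lists of equal length the control-only share was 46.7% and the log2 ratio -0.69, against a background of 31.3% control-only. Counting the nearest TSS of any gene, 5.48% of members lay nearest to a developmental transcription factor gene, as members were then assigned to other genes, against 2.34% of all merged sites. For members whose central 31 bases occur in 1 place, an alternative chosen after seeing the data like that without the island between Hrh1 and Atg7, the control-only share was 52.3% and the log2 ratio -1.19. The background there was 38.6% control-only and 20.4% kd-only. The causes of the other shifts were not tested. No paired analysis was possible because each antibody and condition has 1 library, and none could be left out. Depth is unknown, so a site absent from a list may have fallen short of the threshold.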

Other observations

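The 1918 distal Smarca4 sites in H3K27me3 islands that also carried an H3K27ac or H3K4me3 island split into 779 with H3K27ac alone, 732 with H3K4me3 alone and 407 with both marks. Unlike the members, they were called about equally often in 1 condition alone, with 399 control-only and 413 kd-only sites, a log2 of kd-only over control-only sites of 0.05 (-0.15 to 0.25). They were wider than the members (median 570.5 bp) and ranked higher, at a median of 61.8 in control and 58.0 after kd.

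Members were also uneven between chromosomes. Chromosome 11 held 668, or 5.47 per Mb, and the X chromosome 95, or 0.555 per Mb, against 2.26 per Mb over the standard chromosomes. As a share of the merged Smarca4 sites there, members made up 7.79% on chromosome 11 and 3.78% on the X chromosome, against 6.15% overall. On the X chromosome 41.8% of all merged Smarca4 sites were kd-only and 18.2% control-only, whereas its 95 members were kd-only in 27.4% and control-only in 49.5%. On chromosome 6, 41.9% of members were kd-only, against 27.6% of all merged Smarca4 sites there. The island between Hrh1 and Atg7 held 85 of the 291 members of this chromosome, 65 of them kd-only.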
